A study of Homo sapiens with 2 samples.

Results

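Transcripts of 6 transcription factors of the epithelial-mesenchymal transition (EMT), SNAI1, SNAI2, TWIST1, TWIST2, ZEB1 and ZEB2, and of 4 lysyl oxidases, LOX, LOXL1, LOXL2 and LOXL4, were compared in A549 cells after mechanical stretch and in static culture. The members were chosen by gene symbol, and all 10 were named on the array among 14884 named genes, each by 1 probe set. A549 is an established human lung adenocarcinoma line of epithelial origin. The stretched cells had spent 4 h under stretch and the others 4 h in static culture. The labels give no other treatment, and the line was read from the source names, since the title of the stretched sample swaps digits of its name. Each condition was represented by 1 Affymetrix array, so values have no replicate, nothing could be tested across samples and p-values are absent. How the cells were stretched, and how many cultures gave each RNA, is not stated in the labels. The title of the series names invasion of lung cancer cells. In whole-culture RNA, more cells that express a gene and more RNA per cell cannot be told apart.

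The EMT is a programme in which epithelial cells loosen their junctions and take on migratory, mesenchymal properties. Snail, Twist and ZEB proteins drive it largely by repressing epithelial genes such as the E-cadherin gene through short DNA motifs called E-boxes. Lysyl oxidases are copper-dependent enzymes that oxidise lysines of collagen and elastin, so that the fibres become cross-linked and the matrix stiffens. LOXL2 has also been reported to act with Snail in the repression of E-cadherin.

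Among the 10 members, 5 were at least 1.5-fold higher on the stretched array and 0 were at least 1.5-fold lower. The 5 were LOXL2, TWIST2, SNAI2, SNAI1 and ZEB2, and the first 3 of them exceeded 2-fold. The other 5, LOX, LOXL1, ZEB1, TWIST1 and LOXL4, differed by between 0.03 and 0.22 on the log2 scale. The same 1.5-fold step was passed upward by 20.7% of all 14884 named genes (3076 genes) and downward by 8.02%. A 2-fold step upward was passed by 9.07% of them. The median difference of the 10 members was 0.455, beside 0.06 for all named genes. A level filter kept genes whose higher signal reached 2.52, the median of all values. It kept 9 of the 10 members, all but TWIST1, and TWIST2 passed it only through its stretched value. Without TWIST2, 4 of the 8 members that met it on both arrays were 1.5-fold higher and their median was 0.455. Over all 9 the median was 0.69, beside 0.20 for the 10981 named genes that passed, of which 27.7% passed 1.5-fold upward and 8.9% downward, and 12.3% passed 2-fold upward and 2.5% downward.

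The scaling of the 2 arrays decides the sign of small differences. As deposited, the median of all probe sets was 2.47 on the stretched and 2.57 on the static array, and the differences depended on signal level. Of the genes past 1.5-fold either way, 75.7% were higher under stretch as deposited, 83.9% after centring on the median of all probe sets, 54.0% after quantile normalization, 60.7% once a loess on level was removed, and 52.2% or 12.1% after centring on reference genes by their paired differences or by their medians. These centrings lower every difference by 0.22 and by 0.68. With level filters at the upper quartile and at the background bound the share was 87.3% and 88.0%. A background bound was set at 4.44, the 95th percentile of signals of 21 named genes of unrelated tissues, whose values lay between 1.24 and 5.71 and whose differences had an SD of 0.32. RMA values carry no detection call, so a signal below this bound may be background. A signal under the bound is called within the background range here. Being above it is a weak mark of expression. Both signals of SNAI1 and SNAI2 and the static signal of LOXL2 (5.69) lay below 5.71, the highest value of the unrelated genes.

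**Figure D1:**
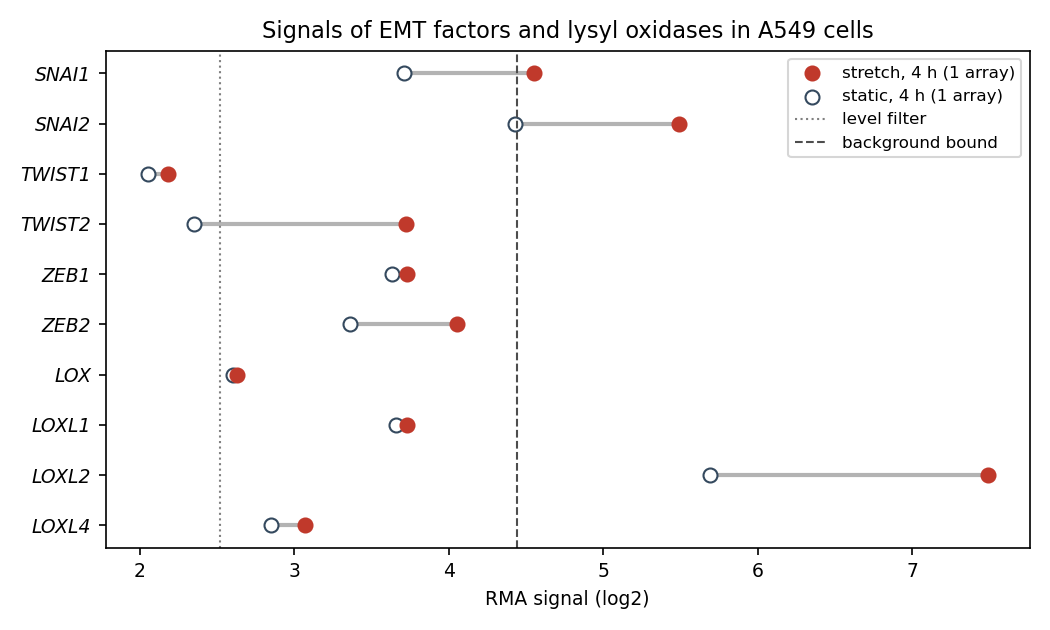
RMA signal on the log2 axis of each member (rows) on the stretched array (filled) and the static array (open), 1 array each. The dotted line is the level filter of 2.52 and the dashed line the background bound of 4.44. LOXL2, SNAI2 and SNAI1 lie right of the bound on the stretched array, and LOXL2 also on the static array.

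RefSeq promoter windows, which run from 250 bases before to 50 after an annotated start, matched 6 of the 10 members with 14 windows. SNAI1, SNAI2, TWIST1 and LOXL2 were not matched. The windows of TWIST2 and ZEB2, the 2 members with a window that were at least 1.5-fold higher, are shown in lower case, 5′ to 3′ on the gene's strand. E-boxes (CANNTG, which reads the same on both strands) are in capitals, as the broad class that includes the sites of Snail, Twist and ZEB proteins. The TWIST2 window is chr2:238847835-238848134 on the plus strand and the ZEB2 window chr2:144520070-144520369 on the minus strand of GRCh38.p14.
TWIST2: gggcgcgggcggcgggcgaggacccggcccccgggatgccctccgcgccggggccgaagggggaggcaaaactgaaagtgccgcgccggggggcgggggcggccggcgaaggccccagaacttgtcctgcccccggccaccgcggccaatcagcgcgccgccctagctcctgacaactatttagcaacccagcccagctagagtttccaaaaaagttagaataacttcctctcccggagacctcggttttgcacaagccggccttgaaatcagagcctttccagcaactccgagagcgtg
ZEB2: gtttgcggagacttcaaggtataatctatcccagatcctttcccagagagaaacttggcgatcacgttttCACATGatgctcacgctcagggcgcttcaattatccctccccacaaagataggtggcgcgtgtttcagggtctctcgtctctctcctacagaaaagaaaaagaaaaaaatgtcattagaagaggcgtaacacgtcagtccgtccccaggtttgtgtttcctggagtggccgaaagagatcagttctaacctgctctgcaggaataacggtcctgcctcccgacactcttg

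The ZEB2 window held 1 E-box and that of TWIST2 0. Such a motif was found in 68.7% of all 35116 promoter windows of the same length. The narrower E2-box form, CACCTG, was in neither window, and in 20.6% of all windows. The TEAD motif GGAATG (14.0% of windows), the AP-1 motif TGANTCA (7.71%) and the CArG box (1.29%), searched on both strands, were not among the letters of either window. The hypoxia response core ACGTG occurred at 2 places in the ZEB2 window and 0 in that of TWIST2, and in 21.4% of all windows. These matches are descriptions of letters and not of bound sites.

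Snail family genes encode zinc finger repressors. SNAI2 (Slug) read 5.49 on the stretched array, against 4.43 on the static array, a log2 difference of 1.06 or 2.08-fold. Its stretched signal lay above the background bound and its static signal just under it. SNAI1 (Snail) read 4.55 under stretch, against 3.71 in static culture, a difference of 0.84 or 1.79-fold, with the stretched value just above the bound and the static value below it. Among 2093 other named genes whose mean signal lay within 0.5 of that of SNAI2, 17.2% had a difference at least as high, and the corresponding share for SNAI1 was 19.5% of 2242 genes. Neither Snail gene therefore stood at the edge of genes of like signal. SNAI3, the remaining Snail gene, read 3.63 under stretch and 3.79 in static culture, under the background bound on both arrays. SNAI1 and SNAI2 stayed positive in all 5 other scalings, of which 1, the paired centring, was added after the data were seen. They kept a 1.5-fold difference in 4 of them and stood at 0.16 and 0.38 after centring on the reference gene medians.

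Twist genes encode basic helix-loop-helix factors. TWIST2 read 3.72 on the stretched array, against 2.35 on the static array, a difference of 1.37 or 2.58-fold. Both signals lay below the background bound, and the static one lay below the level filter. A difference at least as high was found in 1.64% of 2752 named genes of like mean signal, and the median difference of these genes was -0.03. TWIST2 kept a 1.5-fold difference in all 5 other scalings, with differences from 0.69 to 1.47. TWIST1, its close paralogue, read 2.18 under stretch and 2.05 in static culture, under the level filter on both arrays, and its difference of 0.13 was negative after both reference centrings.

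ZEB genes encode large zinc finger and homeodomain repressors. ZEB2 read 4.05 on the stretched array, against 3.36 on the static array, a difference of 0.69 or 1.61-fold. Both signals were within the background range. Of 2377 genes of like signal, 19.3% had a difference at least as high. ZEB2 kept a 1.5-fold difference in 2 of 5 other scalings and stood at 0.54 after quantile normalization, at 0.47 with paired reference genes and at 0.01 with reference gene medians. ZEB1 read 3.73 under stretch and 3.63 in static culture, a difference of 0.10 that was negative after quantile normalization (-0.04) and after both reference centrings. Among genes of its signal, 51.1% had a difference at least as high as that of ZEB1, near the middle of them.

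ZEB1 and ZEB2 transcripts are known targets of the miR-200 microRNAs, which fall into a pair of seed groups. The mature sequences are shown because the array names the genes of all 5. Capitals mark the seed, bases 2 to 8, and the sequences are those of RefSeq on GRCh38.p14.
hsa-miR-200b-3p: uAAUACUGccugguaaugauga
hsa-miR-200c-3p: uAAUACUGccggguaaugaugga
hsa-miR-429: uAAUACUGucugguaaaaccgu
hsa-miR-200a-3p: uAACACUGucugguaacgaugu
hsa-miR-141-3p: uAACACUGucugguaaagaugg

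The first 3 share 1 seed and the last 2 another. None of the 5 genes passed the level filter. MIR200C read 1.27 under stretch and 1.93 in static culture, and MIR200B read 2.13 under stretch and 2.48 in static culture. Signals of the 5 lay between 1.27 and 2.13 on the stretched array and between 1.85 and 2.48 on the static array, with differences from -0.66 to 0.17. Which form of a microRNA these probe sets read is unknown. Of the 23 named microRNA genes known to target EMT factors, 19 were below the filter. The 4 past it were MIR205 (2.62 under stretch, 2.14 static), MIR30C1 (2.14 under stretch, 2.73 static), MIR30E (3.30 under stretch, 3.17 static) and MIR138-2 (2.42 under stretch, 2.54 static), all within the background range.

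Of the lysyl oxidases, LOXL2 had the largest difference of all 10 members. It read 7.49 on the stretched array, against 5.69 on the static array, a difference of 1.80 or 3.48-fold, and both signals lay above the background bound. LOXL2 oxidises collagen, including that of basement membranes. Of 1223 named genes of like mean signal, 2.86% had a difference at least as high, and their median difference was 0.43. LOXL2 kept a 1.5-fold difference in all 5 other scalings, with differences from 1.12 to 1.90.

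The signals of the other lysyl oxidases lay under the background bound. LOX, the founding enzyme of the family, read 2.63 under stretch and 2.60 in static culture, just above the level filter. LOXL1, which acts on elastic fibres, read 3.73 under stretch and 3.66 in static culture. LOXL4 read 3.07 under stretch and 2.85 in static culture. These arrays therefore say little about a change in those transcripts. The differences of LOX and LOXL1 were negative after both reference centrings, and that of LOXL1 also after loess and quantile normalization, while LOXL4 stood at -0.46 after centring on reference gene medians. LOXL3, the remaining paralogue, read 3.52 under stretch and 3.36 in static culture.

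LOX is a known target of hypoxia-inducible factors, and the window at its most upstream RefSeq start is shown because it holds the most copies of the hypoxia response core among its 3 windows. The window is chr5:122078210-122078509 on the minus strand of GRCh38.p14, with ACGTG, searched on both strands, in capitals.
LOX: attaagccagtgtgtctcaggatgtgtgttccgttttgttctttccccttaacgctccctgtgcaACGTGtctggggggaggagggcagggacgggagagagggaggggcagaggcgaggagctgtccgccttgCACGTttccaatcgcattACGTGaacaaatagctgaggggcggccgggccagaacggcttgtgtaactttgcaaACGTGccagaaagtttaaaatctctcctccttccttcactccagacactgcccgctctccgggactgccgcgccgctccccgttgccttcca

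The core occurred 4 times in these letters and 1 time in each of the other 2 LOX windows. EPAS1, which encodes the hypoxia-inducible factor HIF-2α, read 8.98 under stretch and 7.39 in static culture, a difference of 1.59. The LOX signals lay under the background bound, so the pair cannot be compared. No binding was measured in these samples.

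**Figure D2:**
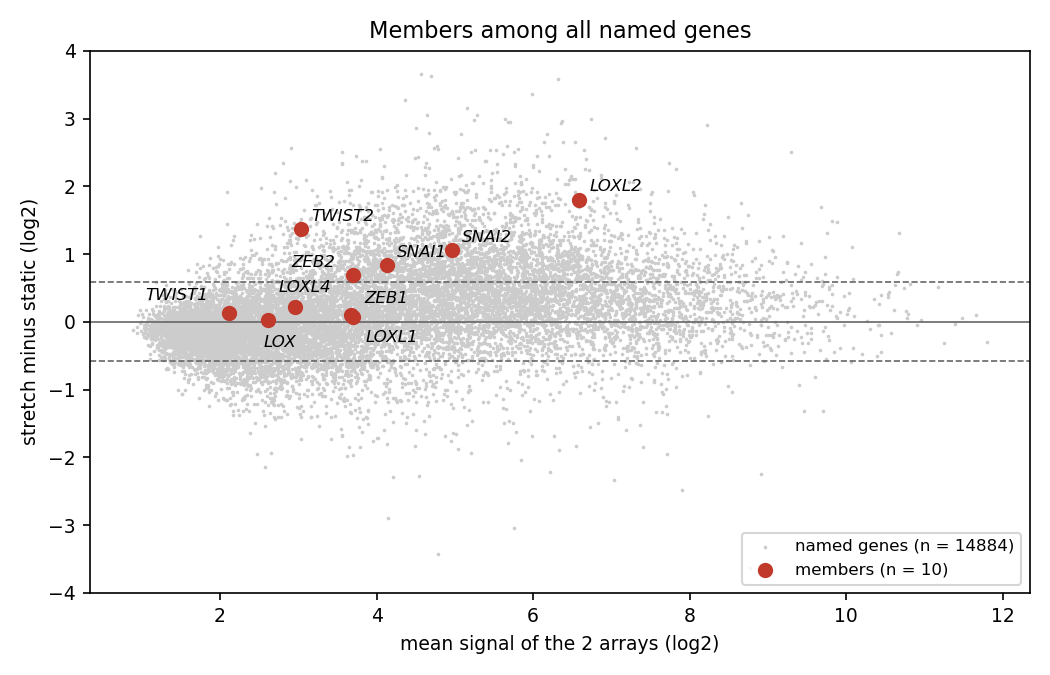
Log2 difference, stretch minus static, against the mean signal of the 2 arrays for 14884 named genes (grey) and the 10 members (red). Dashed lines mark 1.5-fold, and 3 genes lie beyond the drawn range of 4 either way. LOXL2 and TWIST2 lie near the upper edge of genes of their signal, and SNAI1, SNAI2 and ZEB2 lie inside it; LOX, LOXL1, LOXL4, ZEB1 and TWIST1 lie near 0, where scaling turns the sign.

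The named protein-coding genes whose pair of signals lay nearest to that of LOXL2, by Euclidean distance over its 2 log2 values, were TMEM185B, SPDL1, JPT2, IGFBP1 and WDR35. IGFBP1, a secreted binding protein of insulin-like growth factors, read 7.49 under stretch and 5.57 in static culture. SPDL1, a kinetochore adaptor, read 7.55 under stretch and 5.74 in static culture. With 2 arrays, such likeness describes only these libraries.

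**Figure D3:**
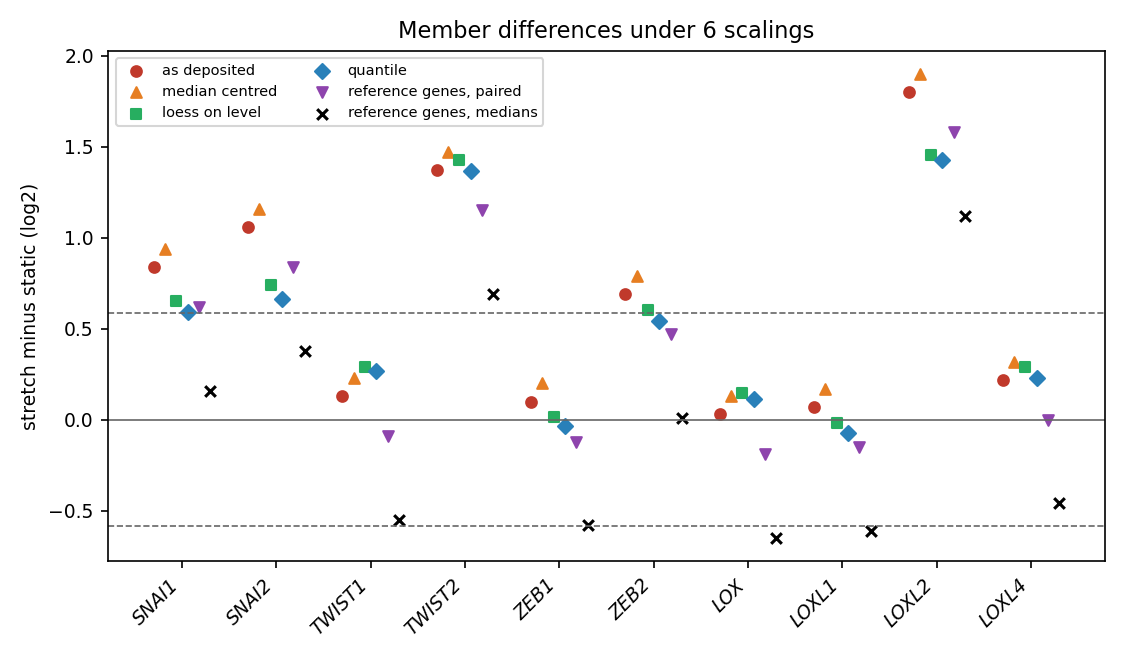
Log2 difference, stretch minus static, of each member as deposited and under 5 other scalings (symbols), with dashed lines at 1.5-fold. LOXL2 and TWIST2 lie above the upper line under every scaling drawn, SNAI1 and SNAI2 fall below it only with reference gene medians, and LOX, LOXL1, LOXL4, ZEB1 and TWIST1 lie on both sides of 0 or touch it.

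Other transcription factors tied to the EMT divided as deposited. Of 16 past the level filter (24 listed, 18 named), 3 exceeded 1.5-fold upward and 3 downward, with a median of 0.01. Among all genes past it, 27.7% passed upward and 8.9% downward. With the filter asked of both values 3 of these factors were higher and 2 lower, beside 2864 and 631 of all 9833 genes. The list median was -0.275 after quantile normalization. With reference gene medians it was -0.67, with 2 higher and 10 lower, beside 728 and 5300 of all 11566 genes. ETS1, an ETS factor of invasive cells, read 6.24 under stretch and 4.19 in static culture (2.05). FOSL1, an AP-1 subunit, read 8.34 under stretch and 6.38 in static culture (1.96), and HMGA2, a chromatin protein upstream of SNAI1, read 5.01 under stretch and 4.00 in static culture (1.01). SOX9 was lower, at 6.35 under stretch and 7.52 in static culture (-1.17). The static values of ETS1 and HMGA2 lay within the background range.

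The corepressors that Snail and ZEB proteins recruit were measured more fully. Of 24 past the filter (32 listed), 9 exceeded 1.5-fold upward and 0 downward, with a median of 0.545. Among all genes past it, 27.7% passed upward and 8.9% downward. Of the 23 with a signal above the background bound, 9 were higher and 0 lower, beside 2446 and 332 of all 6202 such genes. At that level the upward share of the list was like that of all genes. After quantile normalization 7 corepressors were higher (median 0.13), and after loess 7 (median 0.20). Over all genes, 1815 of 10943 and 2044 of 10933 were higher in these scalings. With reference gene medians 4 corepressors were higher and 2 lower (median -0.135), beside 728 and 5300 of all 11566 genes. AJUBA, a LIM protein that binds the repressor domain of Snail, read 6.07 under stretch and 3.48 in static culture (2.59). Its relative WTIP read 6.22 under stretch and 4.62 in static culture (1.60), and the third relative, LIMD1, stood at 0.55. The histone methyltransferase SUV39H1 stood at 1.75, although its second, dimmer probe set gave -0.21, and SIN3B, a scaffold of histone deacetylases, read 5.03 under stretch and 3.53 in static culture. Chosen after their values were seen, KDM1A, the histone demethylase bound by Snail, read 7.71 under stretch and 6.47 in static culture (1.24), EZH2 stood at 1.06 and HDAC1 at 0.80. The static values of AJUBA, SUV39H1 and SIN3B lay within the background range.

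Kinases and ubiquitin enzymes that set the stability of Snail protein had a median of 0.11 over 13 measured (30 listed). The median of all genes past the filter was 0.20. Of the 13, 2 passed 1.5-fold upward and 1 downward, beside 27.7% and 8.9% of all genes past the filter. Of the 10 with a signal above the background bound, 2 were higher and 0 lower, beside 2446 and 332 of all 6202 such genes. After quantile normalization 1 was higher and 2 were lower (median -0.315), after loess 1 and 3 (median -0.24), and with reference gene medians 0 and 6 (median -0.57). The counts over all genes in these scalings were 1815 and 1545 of 10943, 2044 and 1325 of 10933, and 728 and 5300 of 11566. USP37, a deubiquitinase of Snail, read 5.96 under stretch and 4.92 in static culture (1.04), and the ubiquitin ligase subunit FBXL5 stood at 0.59. PRKD1 stood at -0.70 and FBXL14 at -0.44, both within the background range. GSK3B, the kinase that marks Snail for degradation, read 8.95 under stretch and 9.17 in static culture, and was chosen after its value was seen. An array measures transcripts and not the protein stability these enzymes set.

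Inducers that act upstream of the EMT factors were often higher as deposited. Of 34 past the filter (47 listed, 35 named), 18 passed 1.5-fold upward and 3 downward, with a median of 0.66. Among all genes past it, 27.7% passed upward and 8.9% downward. With the filter asked of both values 18 inducers were higher and 1 lower, beside 2864 and 631 of all 9833 genes. After quantile normalization 10 were higher, after loess 9, and with reference gene medians 6 were higher and 9 lower. Over all genes, 1815 of 10943, 2044 of 10933 and 728 of 11566 were higher in these scalings, and 5300 were lower in the last. IL11, a cytokine of the interleukin-6 family, read 6.46 under stretch and 3.95 in static culture (2.51), the static value being under the background bound. The Notch ligand gene JAG1 read 8.69 under stretch and 6.76 in static culture (1.93), and TEAD4, which binds DNA for YAP and TAZ, read 6.16 under stretch and 4.57 in static culture (1.59). Chosen after their values were seen, SMAD3, a mediator of TGF-β, stood at 1.48, NFKB1 at 1.25 and YAP1 at 0.78, with a dimmer YAP1 probe set at -0.37.

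Factors that guard the epithelial state gave few signals. Of 17 named genes (22 listed), 11 passed the filter and 4 exceeded the background bound on the stretched array. Past the filter, 0 passed 1.5-fold upward and 2 downward, with a median of 0.09. Among all genes past it, 27.7% passed upward and 8.9% downward. GRHL3, 1 of the 2, met the filter only through its static value of 2.90, so the filter partly fixed this count. With the filter asked of both values 0 were higher and 1 lower, beside 2864 and 631 of all 9833 genes. The list median was -0.22 after quantile normalization and -0.13 after loess. With reference gene medians it was -0.63, with 9 lower, beside 5300 lower of all 11566 genes. EHF, an epithelial ETS factor, read 4.88 under stretch and 6.37 in static culture (-1.49). GRHL3 stood at -0.86 within the background range, KLF5 at 0.36 and CDX1 at -0.34.

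Epithelial genes that EMT factors are known to repress were read next. Of 25 past the filter (38 listed, 27 named), 9 exceeded 1.5-fold upward and 3 downward, with a median of 0.33, beside shares of 27.7% upward and 8.9% downward among all genes that met it. After quantile normalization 3 were higher and 3 lower, and after centring on reference gene medians 2 were higher and 10 lower. Of all genes, 1815 of 10943 were higher and 1545 lower after quantile normalization. With reference gene medians 728 of 11566 were higher and 5300 lower, so the list moved down together with all genes. The keratin gene KRT7 read 7.56 under stretch and 5.41 in static culture (2.15), and KRT8 read 5.47 under stretch and 4.6 in static culture (0.87). The tight junction gene CLDN1 read 8.20 under stretch and 6.91 in static culture (1.29), and OCLN, a classical Snail target, read 6.07 under stretch and 5.62 in static culture (0.45). The desmosomal cadherin gene DSC2 read 4.68 under stretch and 5.69 in static culture (-1.01). CDH1 and CDH2, the genes of E- and N-cadherin, were not named in the annotation used, so the switch between these cadherins was not analysed here.

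Mesenchymal genes that accompany the EMT had a median of 0.565 over 14 past the filter (38 listed, 17 named), and 7 exceeded 1.5-fold upward and 0 downward. Among all genes past it, 27.7% passed upward and 8.9% downward. With reference gene medians the list median was -0.24, and 3 were higher and 4 lower, beside 728 and 5300 of all 11566 genes. The matricellular gene CCN2 read 8.11 under stretch and 4.52 in static culture (3.59), with 0.96 in its dimmer probe set. AXL, a receptor tyrosine kinase of mesenchymal carcinoma cells, read 8.59 under stretch and 6.03 in static culture (2.56). TPM1 stood at 1.48 and FSTL1, a secreted glycoprotein, at 1.19. The intermediate filament gene VIM read 8.21 under stretch and 8.0 in static culture (0.21), while its other probe sets gave -0.16 and -0.64. FN1, encoding fibronectin, read 10.77 under stretch and 10.33 in static culture (0.44).

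Genes that process lysyl oxidases or work beside them included BMP1, the protease that releases active LOX from its precursor. BMP1 read 5.13 under stretch and 3.0 in static culture (2.13), the static value being under the background bound. The related protease gene TLL2 read 2.37 under stretch and 3.64 in static culture (-1.27), within the background range on both. The elastic fibre genes FBLN1 and FBN1 stood at 1.01 and 0.87. Of the 19 genes of this list past the filter (26 listed, 23 named), 6 passed 1.5-fold upward and 3 downward, with a median of 0.35. Among all genes past it, 27.7% passed upward and 8.9% downward. With the filter asked of both values, which TLL2 did not meet, 6 were higher and 1 lower, beside 2864 and 631 of all 9833 genes. After quantile normalization, and also after loess, 3 of the list were higher and 4 lower. The counts over all genes in these scalings were 1815 and 1545 of 10943, and 2044 and 1325 of 10933. With reference gene medians 1 of the list was higher and 10 lower, beside 728 and 5300 of all 11566 genes.

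Enzymes of collagen hydroxylation and folding had a median of 0.56 over 10 measured (26 listed), and 4 passed 1.5-fold upward and 1 downward. Among all genes past the filter, 27.7% passed upward and 8.9% downward. With reference gene medians 1 of the enzymes was higher and 2 lower, beside 728 and 5300 of all 11566 genes. P3H2, a prolyl 3-hydroxylase, read 6.18 under stretch and 4.83 in static culture (1.35), TRAM2 stood at 1.26 and the collagen galactosyltransferase gene COLGALT1 at 1.13. P3H3 stood at -0.74 within the background range. No gene of the 33 listed collagen chains, the substrates of the lysyl oxidases, and none of the 4 ID genes, inhibitors of Twist partners, was named in the annotation used.

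**Figure D4:**
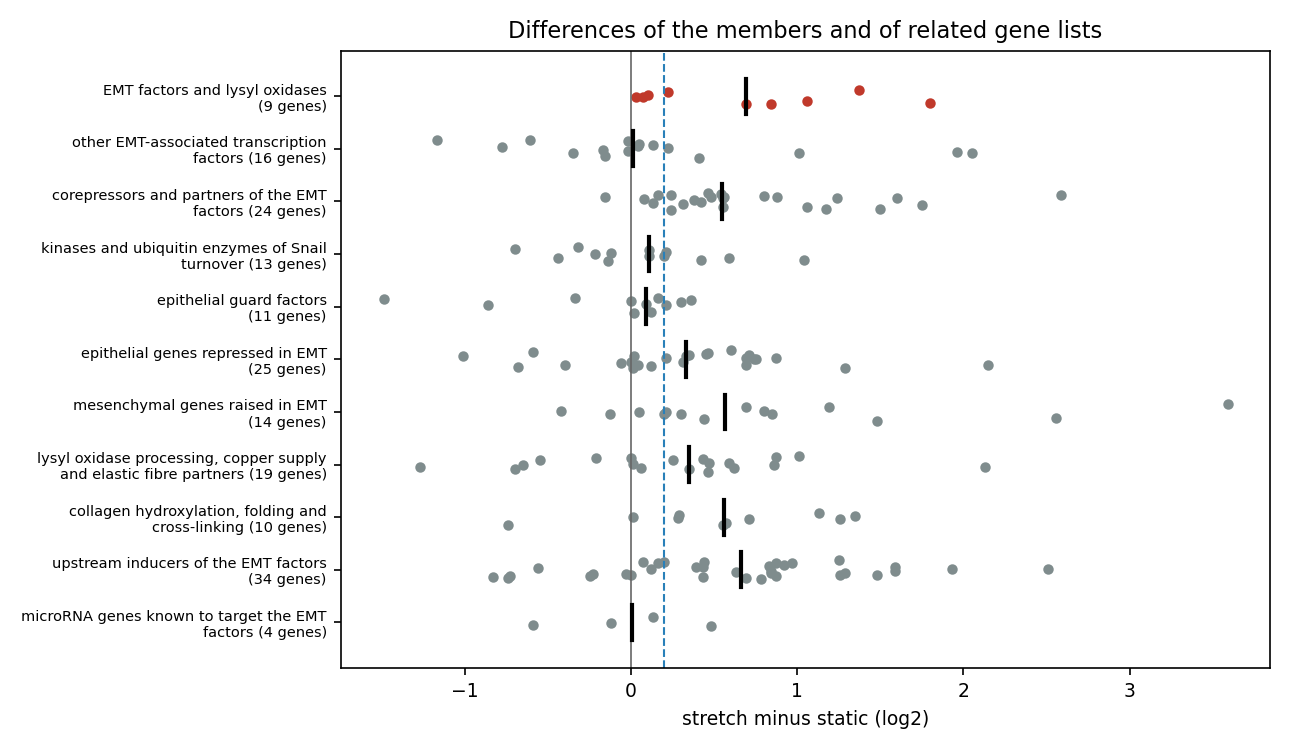
Log2 difference, stretch minus static, of genes past the level filter (points) in the member list (red) and related lists (grey), with black bars at the list medians and a dashed line at 0.20, the median of all 10981 genes past the filter. The member points reach from 0.03 to 1.80 with a median of 0.69, which is 0.455 without TWIST2, and centring on reference gene medians moves every point left by 0.68.

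Markers were read for the label and for other cells. Of the A549 and lung adenocarcinoma list, 9 of 19 were named and all 9 passed the filter, 6 of them above the background bound on both arrays. As deposited 4 of the 9 exceeded 1.5-fold upward and 1 downward, and the median was 0.10. Among all genes past the filter, 27.7% passed upward and 8.9% downward. KRT18 stood at 0.71, and the lower one, EPCAM, named after its value was seen, read 4.71 under stretch and 5.30 in static culture (-0.59). The alveolar surfactant genes of that list lay within the background range. Of 12 fibroblast markers 4 were named: DCN, LUM and THY1 were under the background bound on both arrays, and FBLN1 read 5.24 under stretch and 4.23 in static culture. The linear signals of these 4 summed to 56.8 under stretch and 40.7 in static culture. Of 10 endothelial markers 7 were named, all within the background range, with sums of 48.2 under stretch and 49.5 in static culture. Of 12 immune markers 5 were named, and CD68 (8.58 under stretch, 7.51 static) and CD14 (5.53 under stretch, 5.13 static) exceeded the bound, the sums being 454 under stretch and 243 in static culture. The part of other cells in the member differences was not tested.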

How the data were processed

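RNA of 2 samples, 1 of stretched and 1 of static A549 cells, was measured on Affymetrix arrays, and groups were taken from the source names. The deposited log2 values of 53617 probe sets are RMA summaries, per the submitters' processing notes. Their software and chip definition are not given in the sources used here. That the unit is log2 follows from the range (0.60 to 12.7). Sorted values of the arrays differed by up to 0.45. RMA compresses low signals, which shrinks the fold of dim genes.

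The platform annotation named 16098 probe sets by 1 symbol, and all matched RefSeq by gene identifier. For genes with several probe sets, the one with the highest mean stood for the gene. Differences are stretch minus static. With 1 array per condition nothing was tested, and the number of arrays limits the precision. The members and gene lists were chosen with earlier results of these data known. Named were all members, SNAI3 and LOXL3, up to 4 genes per list with the largest absolute difference past the filter, all genes of a list with at most 4 measured, VIM, FN1, OCLN, CDH1 and CDH2, and the 5 protein-coding genes nearest to LOXL2. Beside these, the miR-200 genes and LIMD1 were singled out for their known role, with values seen. KDM1A, HDAC1, EZH2, SMAD3, NFKB1, YAP1, GSK3B and EPCAM were also chosen after their values were seen. Reference genes were 9 named of 20 listed. The loess had a span of 0.3. Alternatives were 4 scalings and 1 added after the data were seen, the mean of probe sets, 3 level filters and a 2-fold threshold. The functions were tested on simulated data. Python 3.11.15, numpy 2.4.6, pandas 2.3.3 and statsmodels 0.14.6 were used.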

Additional observations from a re-analysis of the deposited data

How the results depend on the processing

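As deposited, all 10 members had a higher signal under stretch, 5 of the 9 that met the level filter passed 1.5-fold upward and 0 downward, and their median was 0.69. With the filter asked of both values, chosen after seeing the data, TWIST2 dropped out, 4 of 8 passed 1.5-fold upward and the median was 0.455. After centring on reference gene medians, 5 of the 10 were higher, 2 passed 1.5-fold upward and 2 downward (LOX and LOXL1) and the median was 0.01. After the paired centring, chosen after seeing the data, 5 of the 10 had a higher signal. With a stricter filter, the upper quartile or the background bound, 3 members remained, SNAI1, SNAI2 and LOXL2, all 3 at least 1.5-fold higher, with a median of 1.06. SNAI1 met each filter, and SNAI2 the bound, only through the stretched value, so the filter itself partly fixed this count. Of all named genes, 2572 of 6612 past the upper quartile and 2446 of 6202 past the bound were at least 1.5-fold higher. At 2-fold, 3 members were higher. Over all genes past the filter, 3042 exceeded 1.5-fold upward as deposited, 3626 after median centring, 1815 after quantile normalization, 728 and 2026 after the median and paired reference centrings, and 1349 at 2-fold. Those lower numbered 977 as deposited, 696 after median centring, 631 with the filter on both values, 1545 after quantile normalization and 5300 and 1855 after the reference centrings. Over the genes of all related lists past the filter, 58 of 171 were at least 1.5-fold higher as deposited, and 30 of 171 at 2-fold. After quantile normalization 37 of 170 were higher, after loess 37 of 169, and with reference gene medians 19 of 179. Over all genes these counts were 3042 and 1349 of 10981, then 1815 of 10943, 2044 of 10933 and 728 of 11566. The median of the related lists was 0.31 as deposited and -0.40 with reference gene medians. With the same centring the median of the upstream inducers turned to -0.02. The reference centrings rest on 9 genes whose own differences include 1.72 for PPIA and 1.34 for IPO8. A centring subtracts 1 constant from every difference, which is how it turns small ones. No paired analysis was possible because each group holds 1 array.

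Signals under the background bound limit what can be said of TWIST2, ZEB2, ZEB1, TWIST1, LOX, LOXL1 and LOXL4, whose values lay below it on both arrays. The bound itself rests on 21 genes and lies close to the stretched value of SNAI1 and the static value of SNAI2.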
